A study of Mus musculus with 58 samples.

Results

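Mouse small-intestinal organoids kept for 96 h under combined Wnt and Notch inhibition (ID, 3 libraries) were compared with organoids kept for 96 h in the standard medium (ENR, 3 libraries). These 6 libraries were chosen by their titles from the 58 samples of the series. Organoids are closed epithelial structures grown from intestinal stem cells in a gel, and ENR is named for the EGF, Noggin and R-spondin in the medium. A second set of 3 libraries, from organoids kept for 96 h with an EGFR inhibitor (Ei), and 3 ID and 3 ENR libraries taken after 6 h, were used to show where the 96 h ID libraries differ. All of them came from Bl/6 small intestine and hold RNA of the bulk cells of whole organoids, sequenced by CEL-seq, a method that counts the 3' ends of transcripts. The labels name neither the Wnt and Notch inhibitors nor their doses. They also do not say whether replicates were separate cultures or animals, so that p-values measure only the spread between these libraries. The ID libraries carry the number 4 in their names and the ENR and Ei libraries the number 3, so library set and treatment cannot be told apart in either 96 h comparison.

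Wnt signals keep crypt-base stem cells dividing: with a Wnt ligand and R-spondin present, beta-catenin is stabilised and switches on targets such as Axin2, Lgr5 and Ascl2. Notch is activated by ligands on neighbouring cells and induces Hes1, which represses Atoh1, the switch to the secretory lineages. The secretory lineages are the mucus-making goblet cells, the antimicrobial Paneth cells, the hormone-making enteroendocrine cells and the chemosensory tuft cells, whereas the absorptive enterocytes line the villus. The design of the comparison asks which genes of these programmes differ once both signals are inhibited.

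Total counts per library ran from 322050 to 574340 in ID, from 158135 to 554681 in Ei and from 1425565 to 1738425 in ENR, and levels are given as counts scaled to a library total of 1000000 (CPM). Of 8135 genes tested with edgeR's quasi-likelihood test and an adjusted p under 0.05 (Benjamini-Hochberg over all of them), 38.1% passed in ID against ENR, with 1605 higher in ID (19.7%) and 1492 lower (18.3%). The change was at least 2-fold for 1081 of the higher and 858 of the lower genes, and the median log2 change over all tested genes was -0.02. The libraries of ID and ENR did not overlap for 52.1% of the tested genes. Ribosomal protein genes made up 5.62 to 7.11% of the counts in ID and 16.0 to 16.6% in ENR, and Malat1, a nuclear RNA, 1.70 to 2.27% in ID and 0.838 to 1.09% in ENR. The epithelial label held in both groups: Epcam, a surface protein of epithelium, had 999.7, 1218 and 755 CPM in ID, against 885, 782 and 902 CPM in ENR. Summed markers of other cell types were low, at 19.7 to 35.8 CPM in ID and 2.13 to 8.08 CPM in ENR for mesenchyme and at 7.53 to 19.7 CPM in ID and 23.2 to 32.7 CPM in ENR for immune cells. For endothelial and neural cells the sum was 19.7 to 60.3 CPM in ID and 4.27 to 11.3 CPM in ENR, and the part of such cells in the results was not tested. Of the members with a row in the count table, the mesenchymal marker Dcn, the macrophage receptor Csf1r and the endothelial markers Pecam1 and Kdr were at 0 in all 6 libraries, and the others had at least 1 count. Over the 3 lists 3 members had enough counts to be tested: 1 was higher in ID, the monocyte receptor Cd14 was lower (log2 -1.62, edgeR adjusted p = 0.012), and Vim, the mesenchymal filament vimentin, did not pass (log2 1.31, edgeR adjusted p = 0.074). In bulk libraries, fewer cells of a type and less RNA per cell cannot be told apart.

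**Figure D1:**
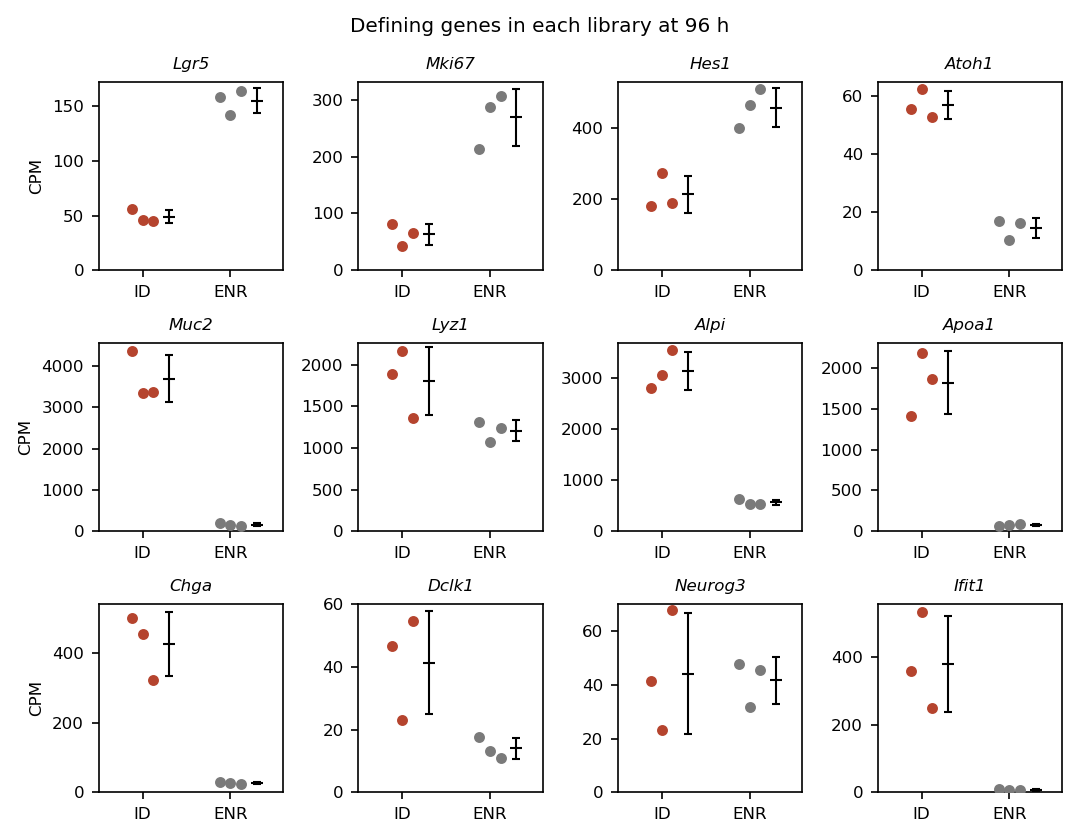
CPM (linear axes) of 12 genes in each library at 96 h, with ID at the left and ENR at the right of each panel; points are libraries and bars the mean and SD of 3. For Lgr5, Mki67 and Hes1 all ID points lie below all ENR points; for Neurog3 the groups overlap; for the other 8 genes all ID points lie above all ENR points.

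The targets of both inhibited pathways were lower in ID. Lgr5, the R-spondin receptor that marks crypt-base stem cells (chr10:115450311-115587780, minus strand, mm10), had 55.6, 46.0 and 45.2 CPM in ID, against 159, 142 and 164 CPM in ENR. Axin2, a feedback inhibitor that reports Wnt activity, had 14.4, 16.4 and 30.1 CPM in ID, against 71.9, 85.1 and 67.5 CPM in ENR. Hes1, the Notch effector (chr16:30064384-30067796, plus strand), had 179.5, 273 and 188 CPM in ID, against 398, 463 and 509 CPM in ENR. Every ID library was below every ENR library for the 3 genes. Lgr5 fell 3.13-fold (log2 -1.65, SE 0.21, edgeR adjusted p = 3.2e-07), Axin2 3.58-fold (log2 -1.84, SE 0.38, edgeR adjusted p = 3.0e-04) and Hes1 2.18-fold (log2 -1.12, SE 0.22, edgeR adjusted p = 1.4e-04). Nrarp, a Notch target that feeds back on the pathway, fell 3.75-fold, to 16.2 to 32.8 CPM in ID, against 68.7 to 98.9 CPM in ENR. Hes1 and Nrarp were the 2 members of a list of 9 Notch targets with enough counts to be tested.

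Among 14 tested Wnt targets 10 were lower and 0 higher (median log2 -1.17), and among 18 tested crypt-base stem cell markers 13 were lower and 0 higher (median log2 -1.50), beside 18.3% of all tested genes lower. Myc, which drives growth and division, fell 3.54-fold and Ccnd1, the G1 cyclin D1, fell 2.39-fold. Ascl2, the stem cell transcription factor, had 30.5, 36.1 and 37.7 CPM in ID, against 125.9, 122 and 134 CPM in ENR, a 3.68-fold fall. Smoc2, a secreted matrix protein of crypt-base cells, fell 3.51-fold and Nap1l1, a histone chaperone, fell 3.09-fold. The Wnt targets Sox9 and Ephb3 did not pass. Sox9, a transcription factor of crypt progenitors, averaged 140.4 ± 27.1 CPM in ID and 180.4 ± 14.0 CPM in ENR (SD, n = 3 each), and Ephb3, which positions cells along the crypt, averaged 42.0 ± 6.19 CPM in ID and 56.0 ± 14.4 CPM in ENR. Olfm4, a stem cell marker, had 0 counts in the ID libraries and 1 count in the ENR libraries together and was not tested.

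Of 17 tested components of the Wnt pathway 3 were lower and 1 higher (median log2 -0.15), a share of lower genes near the 18.3% over all tested genes. Wls, which carries Wnt ligands to the cell surface, had 14.4, 13.1 and 17.0 CPM in ID, against 48.4, 48.5 and 57.1 CPM in ENR. The 2 groups are far apart for Wls, which fell 3.39-fold, whereas the R-spondin receptor Lgr4 fell 1.86-fold and Gsk3b, a kinase that marks beta-catenin for destruction, rose 1.89-fold. The calls of Wls, Lgr4 and Gsk3b ended when all libraries were thinned to equal totals (edgeR adjusted p from 0.062 to 0.11). Of 12 tested Notch ligands, receptors and processing genes 3 were higher and 4 lower (median log2 0.18), beside 19.7% and 18.3% of all tested genes. The share of higher genes is near that over all tested genes. Without ID replicate 3, ENR replicate 2 or ENR replicate 3, 1 was higher. Without any one of these or ID replicate 1, 2 were lower. After thinning 0 were higher and 0 lower of 5 tested.

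**Figure D2:**
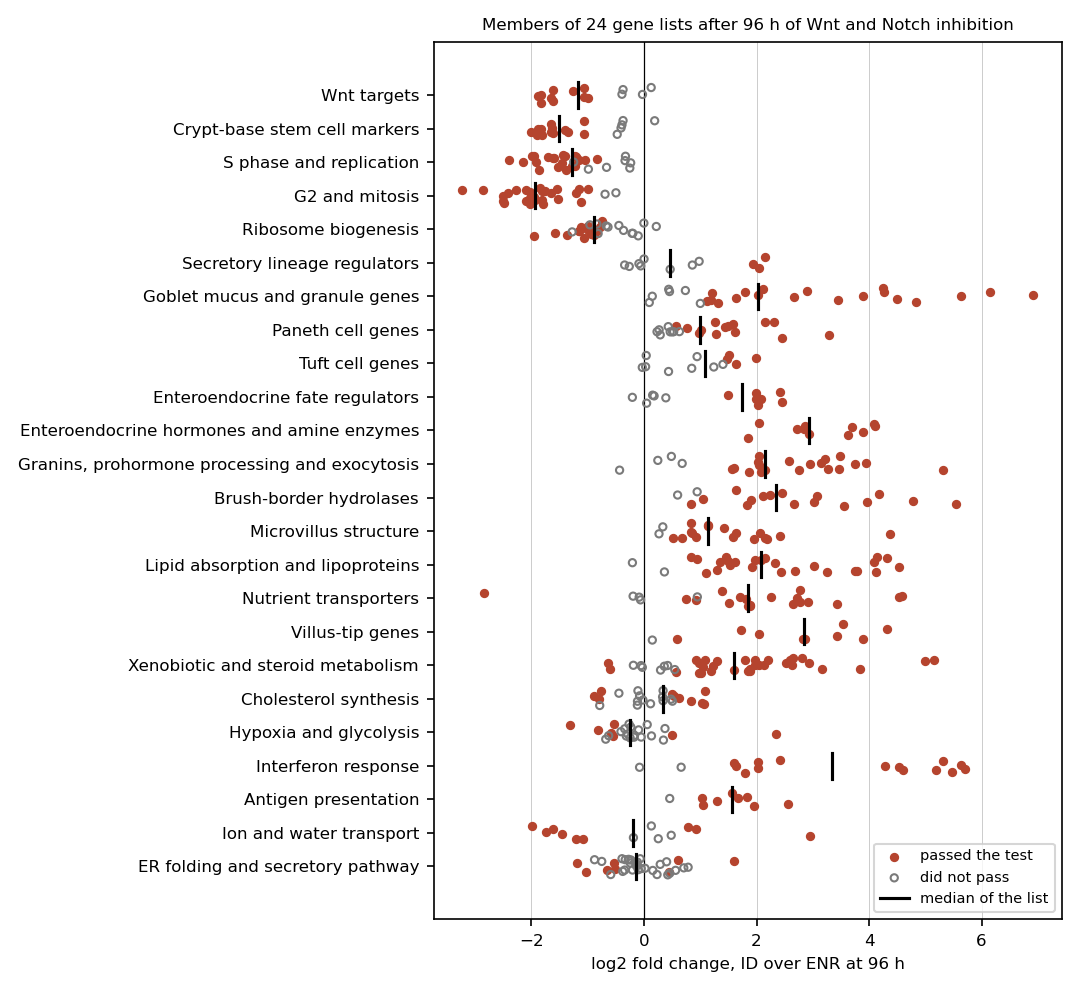
Log2 change of each tested member of 24 gene lists at 96 h, ID over ENR (horizontal axis); filled points passed the test, open points did not, and bars mark list medians. The Wnt target, stem cell, S phase, and G2 and mitosis lists lie left of 0 (medians -1.17, -1.50, -1.29 and -1.94), and the goblet, hormone, brush-border, lipid, villus-tip and interferon lists lie right of it (medians from 2.02 to 3.35).

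Genes of cell division were lower as a group. Of 29 tested genes of G2 and mitosis 27 were lower and 0 higher (median log2 -1.94), and of 29 tested S phase and replication genes 22 were lower and 0 higher (median log2 -1.29). Mki67, the nuclear protein used as a proliferation marker (chr7:135689784-135716361, minus strand), had 80.8, 42.7 and 65.9 CPM in ID, against 213, 287 and 306 CPM in ENR. Cdk1, the kinase that starts mitosis, had 87.9, 32.8 and 62.1 CPM in ID, against 344, 345 and 344 CPM in ENR. The ENR libraries were nearly equal for Cdk1 and the ID libraries spread over more than a 2-fold range, all below them. Mki67 fell 4.10-fold (log2 -2.04, SE 0.27, edgeR adjusted p = 3.9e-07) and Cdk1 5.35-fold (log2 -2.42, SE 0.25, edgeR adjusted p = 5.9e-09). Ckap2, a spindle protein, fell 5.70-fold, Cks2, a subunit of cyclin-dependent kinases, 4.08-fold and Ccnb2, cyclin B2, 9.39-fold. In S phase, Rrm2, the ribonucleotide reductase subunit that makes DNA precursors, fell 5.26-fold and Mcm7, part of the replicative helicase, 3.80-fold. Transcripts of division were not gone: the summed G2 and mitosis list stood at 1280, 689.7 and 1171 CPM in ID, against 3640, 3709 and 3619 CPM in ENR.

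Promoters of the division genes are printed because several of them share one short element. The letters TTTGAA, on either strand, are those of the cell-cycle homology region, an element known from promoters of mitotic genes. They occurred in 14 of 33 windows of the G2 and mitosis list (42.4%), for which 32 of 36 genes had an entry, and in 16.0% of all 32851 windows of the 250 bases before a RefSeq gene start (GRCm38.p6). Of 24 called genes of the list with an entry, 11 held it. The 160 bases before the start follow for Cdk1 (chr10:69352913-69353072, minus strand), Mki67 (chr7:135716380-135716539, minus strand) and Ckap2 (chr8:22185820-22185979, minus strand), 5' to 3' along each gene, with the letters in capitals.
Cdk1: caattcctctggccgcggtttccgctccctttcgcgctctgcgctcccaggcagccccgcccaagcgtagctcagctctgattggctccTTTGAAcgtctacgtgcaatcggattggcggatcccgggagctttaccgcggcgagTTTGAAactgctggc
Mki67: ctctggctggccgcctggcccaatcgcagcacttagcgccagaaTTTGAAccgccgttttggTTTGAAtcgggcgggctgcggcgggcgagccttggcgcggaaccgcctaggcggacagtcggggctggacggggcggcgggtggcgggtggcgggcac
Ckap2: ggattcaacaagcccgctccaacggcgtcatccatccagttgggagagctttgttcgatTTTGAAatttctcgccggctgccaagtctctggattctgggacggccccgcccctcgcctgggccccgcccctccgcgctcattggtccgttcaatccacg
Cdk1 and Mki67 held the letters at 2 places in this stretch and Ckap2 at 1, whereas Ccnb2, within the 250 bases searched, held them at 1 place upstream of this stretch, from 167 to 162 bases before its start, and Cks2 held none in those 250 bases. The letters are a description of these windows and not of binding, and they were chosen with the changes known, among 13 motifs searched in 10 lists.

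Genes that restrain division were called in both directions. Of 20 tested 8 were higher and 4 lower (median log2 0.48), beside 19.7% of all tested genes higher and 18.3% lower. The share of lower genes is near that of all tested genes. Without ID replicate 1 or ID replicate 3, 5 were higher, and after thinning 3 were higher and 1 lower of 15 tested. Mxd1, which competes with Myc for its partner Max, had 278, 335 and 313 CPM in ID, against 28.5, 28.1 and 39.2 CPM in ENR. Mxd1 rose 9.51-fold with no overlap (log2 3.25, SE 0.23, edgeR adjusted p = 8.4e-13), so that Myc and its antagonist changed in opposite directions. Cdkn2b, an inhibitor of Cdk4 and Cdk6, rose 2.99-fold, and Cdkn2c, another inhibitor of the same kinases, fell 7.51-fold, to 3.59 to 6.57 CPM in ID, against 19.9 to 52.0 CPM in ENR. Of 29 tested ribosome biogenesis genes 16 were lower and 0 higher (median log2 -0.88). Npm1 and Ncl, abundant nucleolar proteins, fell 2.98-fold and 2.09-fold, and 74 of 75 tested ribosomal protein genes were lower (median log2 -1.23), a set chosen after its share of the counts was seen.

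Among regulators of the secretory fate 3 of 11 tested genes were higher and 0 lower (median log2 0.46), beside 19.7% of all tested genes higher. The other 8 did not pass, and after thinning 1 of 4 tested was higher. Atoh1, the secretory switch (chr6:64729125-64731245, plus strand), had 55.6, 62.4 and 52.7 CPM in ID, against 17.1, 10.6 and 16.2 CPM in ENR. Spdef, which matures goblet and Paneth cells, had 43.1, 26.3 and 35.8 CPM in ID, against 3.56, 8.44 and 11.5 CPM in ENR. Klf4, a factor of goblet cells and of the upper villus, had 299.7, 237 and 301 CPM in ID, against 73.3, 74.5 and 56.0 CPM in ENR. The ID libraries lay above the ENR libraries for all 3 genes, with rises of 3.81-fold for Atoh1, 4.42-fold for Spdef and 4.15-fold for Klf4 (edgeR adjusted p from 3.3e-10 to 2.2e-05).

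Goblet cell genes were higher in ID, several of them by large steps. Of 25 tested genes of mucus and its granules 19 were higher and 0 lower (median log2 2.02), beside 19.7% of all tested genes higher. Muc2, the mucin that forms the mucus gel (chr7:141690340-141754693, plus strand), had 4358, 3353 and 3382 CPM in ID, against 196, 162 and 132 CPM in ENR. Zg16, a lectin of goblet granules, had 20060, 9711 and 12900 CPM in ID, against 96.8, 106 and 148 CPM in ENR. Clca1, a secreted protease that processes mucus, had 3982, 2719 and 2766 CPM in ID, against 49.8, 39.4 and 44.4 CPM in ENR. ID replicate 1 was the highest for the 3 genes, and every ID library was more than 10-fold above every ENR library. Muc2 rose 22.7-fold (log2 4.50, SE 0.24, edgeR adjusted p = 1.8e-15), Clca1 70.7-fold (log2 6.14, SE 0.31, edgeR adjusted p = 1.2e-15) and Zg16 121-fold (log2 6.92, SE 0.30, edgeR adjusted p = 5.1e-17). Fcgbp, which binds the mucus network, rose 19.1-fold, and Rep15, a goblet cell Rab-binding protein, 19.3-fold. Retnlb, an antimicrobial goblet product, did not pass, at 91.5, 75.5 and 60.3 CPM in ID, against 61.9, 41.5 and 64.1 CPM in ENR. Of 37 tested genes of protein folding and secretion in the endoplasmic reticulum 3 were higher and 5 lower (median log2 -0.14). Both shares are below those over all tested genes, 19.7% higher and 18.3% lower. Without ENR replicate 1 or ENR replicate 2, or with a replicate block, 1 was higher, and without ID replicate 2, 2 were lower. Pdia6, a disulfide isomerase, fell 2.28-fold.

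Paneth cell genes were higher by smaller steps. Of 22 tested genes 14 were higher and 0 lower (median log2 1.00). Mptx1, a pentraxin of Paneth cells, had 533, 459.8 and 478 CPM in ID, against 48.4, 44.3 and 57.7 CPM in ENR, a 9.74-fold rise. Lyz1, Paneth cell lysozyme (chr10:117287797-117292868, minus strand), had 1884, 2161 and 1356 CPM in ID, against 1315, 1069 and 1242 CPM in ENR. The lowest ID library was just above the highest ENR library for Lyz1, whose 1.49-fold rise (edgeR adjusted p = 0.017) did not pass without ID replicate 1, ID replicate 2 or ENR replicate 2 (edgeR adjusted p from 0.053 to 0.11). Pnliprp2, a lipase-related protein, rose 5.47-fold. The defensin gene Gm14851 rose 4.43-fold, although defensin genes are near-identical copies among which the counting could split reads. Pla2g2a, a secreted phospholipase that kills bacteria, did not pass, at 145, 181 and 80.97 CPM in ID, against 84.7, 80.2 and 121 CPM in ENR.

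Hormone genes of enteroendocrine cells were higher in ID, while the gene that starts their lineage did not pass. Of 11 tested hormones and amine enzymes, from a list of 22, 11 were higher and 0 lower (median log2 2.94). Chga, the granule protein chromogranin A (chr12:102554969-102565028, plus strand), had 501, 453 and 324 CPM in ID, against 30.6, 26.0 and 25.4 CPM in ENR. Gip, the incretin of K cells, had 345, 302 and 305 CPM in ID, against 22.1, 16.2 and 24.8 CPM in ENR. Neurog3, the transcription factor that commits cells to the endocrine fate (chr10:62133090-62134763, plus strand), had 41.3, 22.99 and 67.8 CPM in ID, against 47.7, 31.6 and 45.6 CPM in ENR. The groups are wide apart for Chga and Gip and overlap for Neurog3, whose ID libraries held both the lowest and the highest value. Chga rose 15.5-fold (log2 3.95, SE 0.23, edgeR adjusted p = 1.8e-14) and Gip 14.9-fold (log2 3.90, SE 0.20, edgeR adjusted p = 1.2e-15), whereas Neurog3 did not pass (log2 0.15, SE 0.33, edgeR adjusted p = 0.74). Sst, the inhibitory hormone of D cells, rose 17.0-fold, and Tph1, which makes serotonin in enterochromaffin cells, 12.3-fold. Tac1, the substance P precursor, rose 7.65-fold and Cck, which releases bile, 7.25-fold. Of 12 tested fate regulators 7 were higher (4 without ID replicate 1) and 0 lower (median log2 1.74), including Fev, a late factor, at 37.7, 32.8 and 60.3 CPM in ID, against 8.54, 4.22 and 10.96 CPM in ENR. Of 23 tested genes of granins, prohormone processing and exocytosis 19 were higher and 0 lower (median log2 2.15), with Chgb, a second granin, 9.32-fold and Ptprn2, a granule membrane protein, 9.63-fold higher.

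Tuft cell genes were few in these libraries. Of 12 tested genes, from a list of 35, 4 were higher and 0 lower (median log2 1.09), beside 19.7% of all tested genes higher. Without ID replicate 1 or ENR replicate 1, 2 were higher. The summed list overlapped between the groups, at 648 to 919 CPM in ID and 674 to 723 CPM in ENR. The libraries of the groups did not overlap for 3 of the 12 genes, beside 52.1% of all tested genes. Dclk1, the kinase used as a tuft cell marker (chr3:55242364-55539068, plus strand), had 46.7, 22.99 and 54.6 CPM in ID, against 17.8, 13.4 and 10.96 CPM in ENR, with no overlap. The rise of Dclk1 was 3.11-fold (log2 1.64, SE 0.30, edgeR adjusted p = 6.7e-05), and it did not pass once libraries were thinned to equal totals (log2 0.54, edgeR adjusted p = 0.575).

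The absorptive programme was higher from the cell surface to the lipid-handling proteins inside. Of 18 tested brush-border hydrolases 16 were higher and 0 lower (median log2 2.35), and of 19 tested genes of microvillus structure 17 were higher and 0 lower (median log2 1.15). Alpi, intestinal alkaline phosphatase (chr1:87098002-87101606, minus strand), had 2803, 3051 and 3533 CPM in ID, against 629.6, 540.0 and 539 CPM in ENR. The groups did not overlap for Alpi, which rose 5.49-fold (log2 2.46, SE 0.20, edgeR adjusted p = 3.0e-11). Ggt1, which breaks down glutathione, rose 18.04-fold, Asah2, a ceramidase that digests dietary sphingolipid, 8.45-fold and Sis, sucrase-isomaltase, 4.73-fold. Among the structural genes, the microvillus tip cadherin Cdhr2 rose 5.33-fold, the actin bundler Espn 3.90-fold and the actin-binding protein Vil1 2.67-fold.

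Genes that take up, bind and export lipid were higher nearly throughout. Of 27 tested genes 25 were higher and 0 lower (median log2 2.08). Apoa1, the main protein of high-density lipoprotein (chr9:46228580-46230466, plus strand), had 1411, 2174 and 1864 CPM in ID, against 70.4, 73.1 and 89.4 CPM in ENR. Fabp1, which carries fatty acids in the cytosol (chr6:71199827-71205023, plus strand), had 1477, 1609 and 1791 CPM in ID, against 137, 108 and 116 CPM in ENR. The ID libraries stood more than 10-fold above the ENR libraries for both genes. Apoa1 rose 23.2-fold (log2 4.54, SE 0.24, edgeR adjusted p = 1.2e-15) and Fabp1 13.5-fold (log2 3.75, SE 0.23, edgeR adjusted p = 3.5e-14), beside rises of 17.4-fold for Apoc2, the activator of lipoprotein lipase, 13.8-fold for Fabp2, a second fatty acid carrier, and 8.13-fold for Apob, the scaffold of chylomicrons. Of 23 tested nutrient transporters 18 were higher and 1 lower (median log2 1.85). Slc5a1, the sodium-coupled glucose carrier, rose 6.26-fold, Slc2a2, the glucose exit carrier, 6.82-fold, and Slc15a1, the peptide carrier, 23.02-fold. The exception was Slc1a1, a carrier of acidic amino acids, at 3.59, 6.57 and 0 CPM in ID, against 21.3, 25.3 and 19.0 CPM in ENR (7.14-fold lower).

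Genes of the villus tip and of the villus bottom were both higher. Of 10 tested villus-tip genes 9 were higher and 0 lower (median log2 2.85), and of 7 tested antimicrobial genes of the villus bottom 6 were higher and 0 lower (median log2 2.79). Apoa4, a lipoprotein of the upper villus, had 1403, 1058 and 1960 CPM in ID, against 60.5, 77.4 and 83.1 CPM in ENR. Ada, adenosine deaminase of the villus tip, had 108, 148 and 97.9 CPM in ID, against 7.11, 6.33 and 15.0 CPM in ENR. Reg1, a secreted lectin of the lower villus, had 3681, 4470 and 5706 CPM in ID, against 104, 148 and 144 CPM in ENR. In each case the ID libraries lay above the ENR libraries, with rises of 19.98-fold for Apoa4, 11.7-fold for Ada and 34.9-fold for Reg1. Krt20, a keratin of shed cells, rose 7.28-fold, and the bacterial-binding proteins Reg3a and Lypd8 rose 20.4-fold and 4.57-fold. Of 23 tested transcription factors of enterocytes 11 were higher and 1 lower (median log2 0.46), and 6 were higher without ID replicate 3 and 7 without ENR replicate 2. Creb3l3, which drives apolipoprotein genes, rose 14.9-fold and Hnf4g 2.20-fold, and Hnf4a, the related factor of the whole epithelium, averaged 384 ± 40.0 CPM in ID and 432 ± 67.5 CPM in ENR (SD, n = 3 each).

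Genes of drug and steroid metabolism, which the gut epithelium shares with the liver, were mostly higher. Of 39 tested genes of xenobiotic and steroid metabolism 30 were higher and 2 lower (median log2 1.6), beside 19.7% and 18.3% of all tested genes. Cyp3a11, a drug-oxidising enzyme, had 775, 903 and 1292 CPM in ID, against 24.9, 30.9 and 27.1 CPM in ENR, a 35.6-fold rise with wide separation. Cyp3a13 rose 14.2-fold, Cyp2c29 32.0-fold and Aldh1a1, which makes retinoic acid, 6.99-fold. Of 27 tested genes of fatty acid oxidation and ketogenesis 12 were higher and 2 lower (median log2 0.32). Of 23 tested cholesterol synthesis genes 7 were higher (4 without ID replicate 3) and 3 lower (median log2 0.33). Of 24 tested hypoxia and glycolysis genes 2 were higher and 5 lower (3 without ID replicate 1 or ID replicate 2, median log2 -0.26). The share of lower genes is near the 18.3% over all tested genes, and that of higher genes is below 19.7%. Pdk1, which keeps pyruvate out of the mitochondria, fell 2.49-fold.

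Genes of salt and water transport were called in both directions. Of 13 tested genes 6 were lower and 3 higher (median log2 -0.19), beside 18.3% of all tested genes lower and 19.7% higher. The share of higher genes is near that of all tested genes. With DESeq2, without ID replicate 3 or when the 6 libraries were fitted alone, 5 were higher. Slc12a2, the chloride loader of secreting crypt cells, had 357, 246 and 299 CPM in ID, against 885, 993 and 927 CPM in ENR, with no overlap and a 3.08-fold fall. Cftr, the apical chloride channel, fell 2.32-fold and the potassium channel subunits Kcnq1 and Kcne3, which sustain chloride secretion, 3.32-fold and 2.73-fold. Guca2b, the peptide uroguanylin, had 1610, 1619 and 2047 CPM in ID, against 229.8, 220.1 and 234 CPM in ENR, and rose 7.71-fold. ERK feedback and target genes, downstream of the EGF receptor, were called in both directions. Of 10 tested 5 were higher and 2 lower (median log2 0.43), the share of lower genes near the 18.3% over all tested genes. Without ID replicate 1, ID replicate 2 or ENR replicate 3, 3 were higher. Fos, an immediate early factor, rose 2.47-fold, Spry1, an ERK feedback inhibitor, fell 2.92-fold, and Areg, an EGF receptor ligand, rose 2.70-fold.

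Genes of the interferon response were higher in ID by large steps. Interferons act through the STAT and IRF factors on a shared set of antiviral genes. Of 16 tested members 14 were higher and 0 lower (median log2 3.35). Ifit1, which binds foreign RNA (chr19:34640871-34650009, plus strand), had 359, 532 and 250 CPM in ID, against 9.25, 6.33 and 5.77 CPM in ENR. Oasl2, an oligoadenylate synthetase-like protein, had 80.8, 154 and 62.1 CPM in ID, against 0, 0.703 and 4.04 CPM in ENR. Rsad2, viperin, had 53.8, 52.6 and 64.0 CPM in ID, against 0.711, 2.11 and 0.577 CPM in ENR. ID replicate 2 was the highest for Ifit1 and Oasl2, and the lowest ID library was more than 10-fold above the highest ENR library for each of the 3 genes. Ifit1 rose 51.9-fold (log2 5.70, SE 0.33, edgeR adjusted p = 1.0e-14), Oasl2 49.4-fold (log2 5.63, SE 0.54, edgeR adjusted p = 5.3e-10) and Rsad2 44.5-fold (log2 5.48, SE 0.54, edgeR adjusted p = 5.9e-10). Rtp4 rose 40.0-fold and Ifit3 36.5-fold, against ENR sums of 7 and 10 counts over the 3 libraries, and the Ifit genes are paralogs between which reads may be shared. The summed list stood at 1109 to 2125 CPM in ID, at 401 to 479 CPM in ID with an EGFR inhibitor (IDE), at 395 to 493 CPM in ID with a Mek inhibitor (IDM), at 343 to 415 CPM in Ei, at 275 to 337 CPM in ENR with a Mek inhibitor (Mi) and at 219 to 236 CPM in ENR. The IDE and IDM libraries carry the same set number as ID, and their sums were below the lowest ID library in every case, a difference given here without a test.

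Antigen presentation, which interferon is known to induce, was higher too: of 9 tested genes 8 rose and 0 fell (median log2 1.57). B2m, the light chain of class I molecules, had 1346, 1573 and 1416 CPM in ID, against 438, 359 and 428 CPM in ENR, and rose 3.54-fold. The class I heavy chains H2-D1 and H2-K1 rose 2.96-fold and 2.03-fold, and these genes have near-identical copies.

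Promoters of the interferon genes are printed because the element that STAT and IRF complexes are known to bind is common among them. The core letters of this interferon-stimulated response element, GAAA followed by any 2 bases and GAAA again, searched on both strands, occurred in 14 of 28 windows of the interferon list (50.0%), for which 22 of 31 genes had an entry, and in 2.98% of all windows of 250 bases. Of 10 called genes of the list with an entry, 5 held them. The 160 bases before the start follow for Ifit1 (chr19:34640729-34640888, plus strand), Ifit3 (chr19:34583369-34583528, plus strand) and Rsad2 (chr12:26456453-26456612, minus strand), from RefSeq on GRCm38.p6 and 5' to 3' along each gene, with the element in capitals as read on this strand, where it appears as its reverse complement.
Ifit1: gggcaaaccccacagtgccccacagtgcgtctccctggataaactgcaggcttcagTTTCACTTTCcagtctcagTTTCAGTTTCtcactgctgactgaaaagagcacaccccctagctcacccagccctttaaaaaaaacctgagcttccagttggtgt
Ifit3: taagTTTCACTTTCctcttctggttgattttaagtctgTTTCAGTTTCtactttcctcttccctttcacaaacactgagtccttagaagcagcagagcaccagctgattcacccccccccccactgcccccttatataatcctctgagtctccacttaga
Rsad2: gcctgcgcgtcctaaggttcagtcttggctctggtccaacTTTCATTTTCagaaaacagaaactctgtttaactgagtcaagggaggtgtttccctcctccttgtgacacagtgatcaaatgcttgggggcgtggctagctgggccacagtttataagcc
Ifit1 and Ifit3 held the element at 2 places each and Rsad2 at 1, whereas the 250 bases before Oasl2 held no match. These letters too describe the windows and not binding, and were chosen with the changes known, among the same 13 motifs searched in 10 lists. Since the list was made of interferon response genes, the share of windows with the element describes the list and not the changes in ID.

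**Figure D3:**
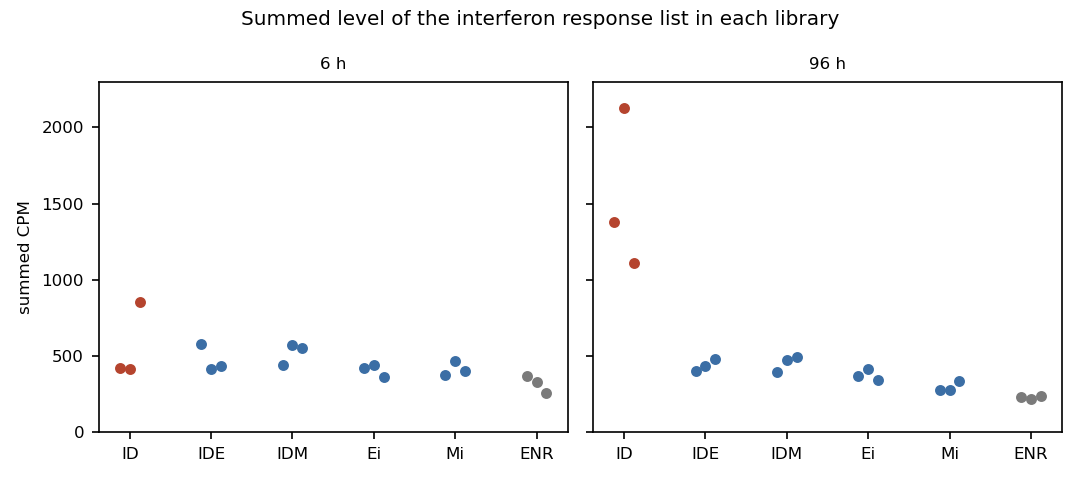
Summed CPM of the interferon response list in each library (points; linear axis) for 6 groups of 3 at 6 h (left) and 96 h (right). At 96 h the ID libraries lie at 1109 to 2125 CPM, above all other libraries, and at 6 h ID replicate 3 stands at 858 CPM with the other 2 ID libraries at 415 to 425 CPM.

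The 10 largest rises, taken over all genes that passed with no overlap and a mean of 20 CPM or more in one group, held 4 genes described above, Zg16, Clca1, Ifit1 and Oasl2. Afp, the fetal serum protein alpha-fetoprotein, had 32.3, 32.8 and 52.7 CPM in ID and 0 counts in ENR, at least 59.7-fold higher in ID with ENR set at a floor of 3 counts over the group. Tff1, a trefoil peptide that the stomach mucosa is known for, had 187, 102 and 56.5 CPM in ID, against 2.13, 0 and 0.577 CPM in ENR. Ido1, a tryptophan-degrading enzyme, had 122, 55.8 and 47.1 CPM in ID, against 0.711, 0.703 and 1.15 CPM in ENR. ID replicate 1 was the highest for Tff1 and Ido1, and ENR was at or near 0 for all 3 genes. A further 3 genes rested on 1 count in the ENR libraries together, so that their ratios are wide: Apol9a, an apolipoprotein L with a near-identical copy, had a ratio of ID to ENR of 239 (95% counting interval 41.6 to 9570), Slc16a9, a monocarboxylate carrier family member, of 115 (19.3 to 4655) and Capn9, a calpain of the digestive tract, of 91.7 (15.2 to 3749).  Among the 10 largest falls, Ccnb2 and Cdc20 belong to the G2 and mitosis list and Cdkn2c to the list of genes that restrain division. Cdc20, an activator of the anaphase-promoting complex, had 5.38, 3.28 and 3.77 CPM in ID, against 35.6, 28.1 and 33.5 CPM in ENR. Adamts15, a matrix protease, had 0, 3.28 and 5.65 CPM in ID, against 44.1, 33.1 and 41.0 CPM in ENR, and Tgif2, a repressor in TGF-beta signalling, 8.97, 9.85 and 5.65 CPM in ID, against 49.1, 59.8 and 64.1 CPM in ENR. Mpp4, Ccdc18, Ube2t and Cgnl1 had 2 or 3 counts over the ID libraries, and their ratios of ENR to ID ran from 9.87 to 15.1, with counting intervals between 3.28 and 127.

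ID was then compared with Ei, which was chosen for this because its endocrine genes were known to be high in these data. Of the 8135 genes 27.6% passed, 1170 higher in ID (14.4%) and 1073 lower (13.2%), with a median log2 change of -0.06, and the libraries did not overlap for 37.8%. Paneth cell genes were nearly all lower in ID. Of 22 tested Paneth genes 21 were lower in ID and 1 higher (median log2 -2.91), and the summed list stood at 9598 to 15270 CPM in ID and 68980 to 97200 CPM in Ei. Lyz1 was 6.999-fold lower in ID (edgeR adjusted p = 2.1e-12), Pla2g2a 9.003-fold lower, and Mptx1, the exception, 1.71-fold higher. The call of Mptx1 ended without Ei replicate 1 and after thinning (edgeR adjusted p = 0.058 and 0.096). Goblet genes were divided, with 14 of 25 higher in ID and 3 lower (median log2 0.57). Muc2 was 4.39-fold, Zg16 62.4-fold and Clca1 37.7-fold higher in ID than in Ei, and Retnlb 3.10-fold lower. Of 12 tested tuft cell genes 7 were lower in ID (4 without Ei replicate 1) and 0 higher (median log2 -1.49).

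Since Ei was chosen for its endocrine genes, their counts between the 2 treatments are a description. Of 11 tested hormones and amine enzymes 3 were higher in ID (5 without Ei replicate 3) and 0 lower (median log2 0.69), beside 14.4% of all tested genes higher and 27.6% called either way. Of 23 granins and exocytosis genes 2 were higher and 3 lower (median log2 0.03), and 1 was higher without any one of ID replicate 1, ID replicate 3, Ei replicate 1 and Ei replicate 2 or with a replicate block. Chga had 324 to 501 CPM in ID and 273 to 489 CPM in Ei, and the difference did not pass (edgeR adjusted p = 0.66). Gip and Sst did not pass either, and Cck was 4.10-fold higher in ID (edgeR adjusted p = 1.7e-06). Neurog3 was 2.06-fold lower in ID than in Ei (edgeR adjusted p = 0.026), a call that ended without any one of ID replicate 1, ID replicate 2, Ei replicate 1 and Ei replicate 3 (edgeR adjusted p from 0.079 to 0.11). Wnt targets were lower in ID for 11 of 14 genes (7 without Ei replicate 1) and higher for 1 (median log2 -1.37), and Lgr5 was 2.25-fold and Ascl2 5.81-fold lower. Of 29 tested mitotic genes 2 were lower in ID (5 without ID replicate 1) and 0 higher (median log2 -0.42). The share of lower genes over all tested genes was 13.2%, and Mki67 did not pass. The summed G2 and mitosis list stood at 690 to 1280 CPM in ID and at 1285 to 1803 CPM in Ei.

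The absorptive lists were higher in ID than in Ei as well. Of 27 tested lipid absorption genes 22 were higher in ID than in Ei and 0 lower, of 18 brush-border hydrolases 13 were higher and 0 lower, and of 10 villus-tip genes 9 were higher and 0 lower (median log2 1.97, 1.98 and 2.69 in that order). Fabp1 was 45.9-fold and Apoa4 64.3-fold higher in ID, and Ada stood at 97.9 to 148 CPM in ID and at 0 to 6.20 CPM in Ei. Hypoxia and glycolysis genes were higher in ID than in Ei for 21 of 24 and lower for 0 (median log2 1.83), and cholesterol synthesis genes for 18 of 23 with 0 lower (median log2 1.58). Pdk1 was 2.33-fold and Insig1, which restrains sterol synthesis, 11.3-fold higher in ID than in Ei, and the call of Pdk1 ended without ID replicate 3, Ei replicate 1 or Ei replicate 3 (edgeR adjusted p from 0.053 to 0.21) and after thinning. Fetal-like and regenerative genes were lower in ID than in Ei for 9 of 10 (median log2 -2.21). Against ENR, 2 of these 10 were higher in ID and 2 lower (median log2 0.39; 0 and 1 without ID replicate 2). Their sum stood at 458 to 626 CPM in ID, 500 to 590 CPM in ENR and 1630 to 2491 CPM in Ei. Interferon genes were higher in ID than in Ei for 11 of 16 (median log2 2.41), with Ifit1 29.6-fold higher.

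**Figure D4:**
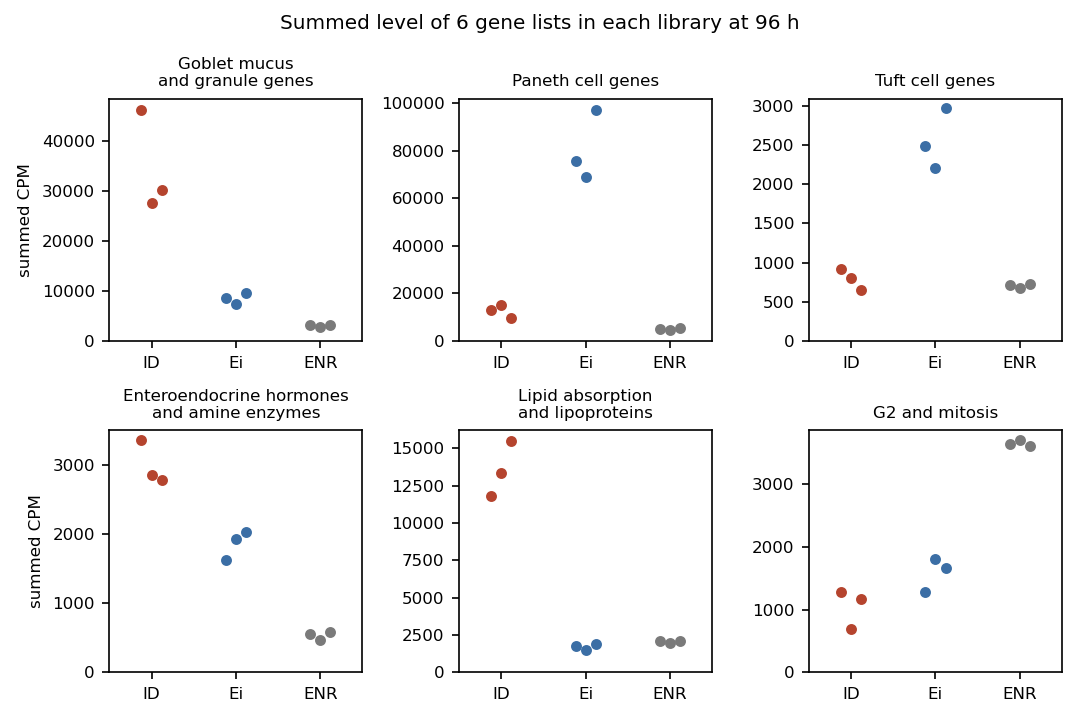
Summed CPM of 6 gene lists in each library at 96 h (points; linear axes from 0), in the order ID, Ei, ENR. Goblet, hormone and lipid sums are highest in ID, Paneth and tuft sums are highest in Ei, and the G2 and mitosis sum is highest in ENR (3619 to 3709 CPM).

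After 6 h, in other libraries, 21 of 9380 tested genes passed (0.224%; 7 higher in ID, 0.0746%, and 14 lower, 0.149%), and 805 had an unadjusted p under 0.05. The 6 h ID and ENR libraries also belong to different numbered sets. Of the 14 tested Wnt targets 5 were lower (median log2 -0.62; 2 without ENR replicate 3 or after thinning, and 3 without ID replicate 3 or ENR replicate 2), with Sox9 (log2 -1.42), Ephb3 (log2 -1.35), Axin2 (log2 -0.94), Ascl2 (log2 -0.86) and Ccnd1 (log2 -0.70) lower. Sox9 had 114, 118 and 97.6 CPM in ID, against 322, 264 and 292 CPM in ENR, and Ephb3 had 44.7, 45.5 and 44.4 CPM in ID, against 119.8, 111 and 111 CPM in ENR. Both groups were tight and far apart for the 2 genes, whose edgeR adjusted p stayed under 0.05 without any one of the 6 libraries, as did that of Cyp2c55 alone among the others. At 96 h Sox9 and Ephb3, as given above, did not pass. No goblet, brush-border, lipid or hormone gene of the lists passed at 6 h (23, 16, 26 and 9 tested), beside 0.224% of all tested genes. At so low a share, lists of this size cannot show whether these genes differ from the rest at 6 h.

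Over all genes tested at 96 h, 19.7% were higher in ID and 18.3% lower. The 13 of the 21 genes that passed in the same direction at 96 h are 61.9% of the 6 h calls and 0.420% of the 96 h calls. They were 7 lower and 6 higher, and 0 passed in the opposite direction. Among the 6 is Cyp2c55, whose 96 h call ended with DESeq2, other filters, upper-quartile factors and thinning, and without ID replicate 2, ENR replicate 2 or ENR replicate 3 (edgeR adjusted p from 0.10 to 0.35 without one of these libraries). The 2 times share no library. Rgcc, a regulator of the cell cycle, was lower at both times (log2 -1.82 at 6 h and -2.21 at 96 h), as was Kcne3 (log2 -1.04 and -1.45). Cyp3a11 was higher at both times (log2 0.98 and 5.16), and so was Sprr1a, a cornified envelope protein (log2 0.84 and 2.79). Ifit1 had 58.2, 53.0 and 198 CPM in ID at 6 h, against 61.1, 19.1 and 21.9 CPM in ENR, and Ifit3 had 24.6, 31.7 and 141 CPM in ID, against 27.7, 15.5 and 8.01 CPM in ENR. ID replicate 3 was the high library for both genes, and the groups overlapped. Ifit1 and Ifit3 passed at 6 h with all libraries (edgeR adjusted p = 0.0355 and 0.0258) and did not pass without ID replicate 3 (edgeR adjusted p = 0.77 and 0.79), ENR replicate 2 (0.23 and 0.13) or ENR replicate 3 (0.27 and 0.25), after thinning (0.061 and 0.17) or with a replicate block (0.056 each). With DESeq2 the adjusted p of Ifit1 was 0.28.

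**Figure D5:**
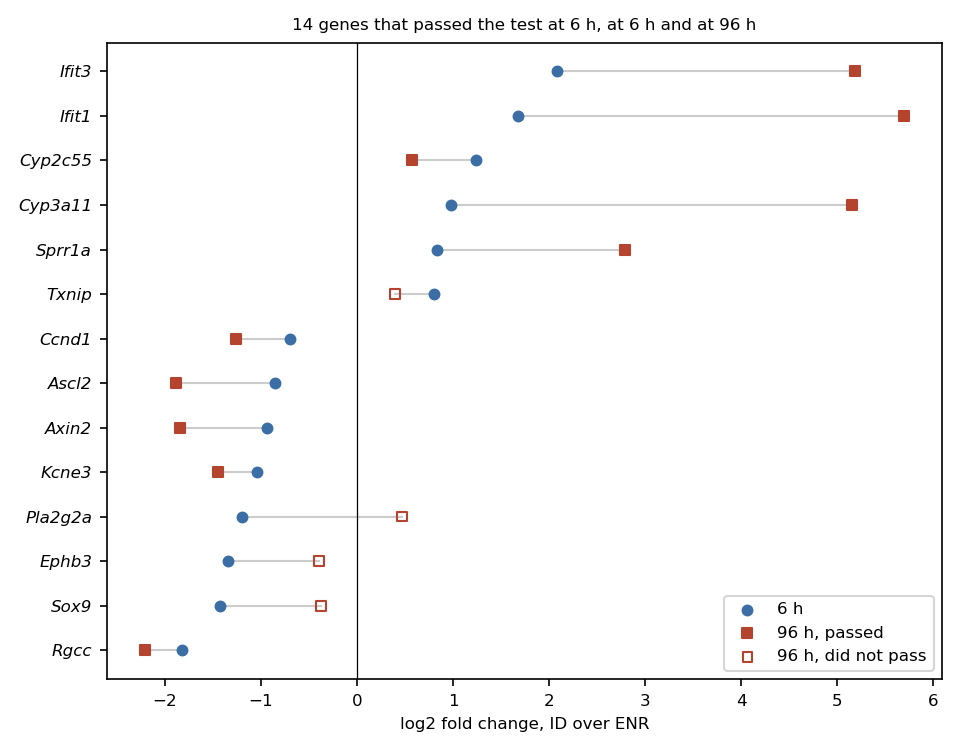
Log2 change, ID over ENR, of 14 of the 21 genes that passed at 6 h, those named in the text or its captions (circles: 6 h; squares: 96 h, filled where they passed there). Circle and square lie on opposite sides of 0 for Pla2g2a alone among the 14, and the squares of Sox9, Ephb3 and Txnip are also open.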

How the data were processed

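The authors' deposited raw counts per gene were used for whole-organoid libraries; no other unit was used. The submitters' processing notes name BWA 0.6.2-r126 and the mm10 build; which program counted the reads, and on which annotation, is not given in the sources used here. Per the labels' protocols, libraries were made by CEL-seq from total RNA. All 18 libraries at 96 h, and separately all 18 at 6 h, were fitted with edgeR 4.0.16 in R 4.3.3 (filterByExpr by group, TMM scaling, glmQLFit, glmQLFTest), with Benjamini-Hochberg adjustment over all genes tested and a threshold of 0.05. Gene lists (51) are described by counts and medians, without a test of the list. Alternatives were DESeq2 1.42.0, other scalings and filters, thinning, a replicate block, and leaving out each library. Depth limits genes of few counts most, and counting intervals (95%) cover counting error only. Gene positions came from GENCODE M21 on mm10 and promoters from RefSeq GRCm38.p6. Figures were drawn with matplotlib 3.10.9 in Python 3.11.15 with pandas 2.3.3.

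Named genes were 11 defining genes; per described list, up to 5 called members with the smallest adjusted p in its main direction and up to 3 others; the 10 largest changes each way; and the genes called at 6 h. Malat1, Cd14 and Vim were named after their values were seen, and 6 genes that the rule or the text would name are not reported here. Members and lists were chosen with earlier results of these data known. The fit was tested on simulated data.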

Additional observations from a re-analysis of the deposited data

How the results depend on the processing

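Counts of genes called in ID against ENR at 96 h stayed within 1.5 times of 3097 under all alternatives but thinning to equal totals (1241 called), where fewer genes could be tested, and ran from 2445 to 2773 without one library. In ID against Ei thinning gave 1208 in place of 2243, and leaving out one library 1588 to 2093. At 6 h, 21 became 56 with no filter on low counts and 3 after thinning, and 5 to 21 without one library (10 when ENR replicate 2 was left out and 5 when either ENR replicate 3 or ID replicate 3 was); the cause was not tested. No gene called in both fits changed direction. Upper-quartile factors shifted the median log2 change over all genes to -0.11 and the split to 1430 higher and 1765 lower (for Ei, -0.16, with 997 higher and 1309 lower). DESeq2 called 2772, 1932 and 25 genes. Same-numbered ID and ENR libraries did not deviate together (r from -0.015 to 0.038 at 96 h), and the main fits used no pairing. With 3 libraries in a group, this cannot show whether same-numbered replicates shared a culture or animal. A replicate block gave 3026, 2160 and 16 calls. Of the named genes at 96 h, 2 that had not passed changed sign: Neurog3 at -0.034 after thinning and from -0.29 to 0.38 without one library, and Ephb3 at 0.023 after thinning. Thinning also left fewer list members tested against ENR. Calls were 6 of 7 tested interferon genes in place of 14 of 16, and 12 of 14 mitotic in place of 27 of 29. They were 12 of 17 goblet in place of 19 of 25, and 10 of 12 brush-border in place of 16 of 18. For tuft cell genes 0 of 4 were called in place of 4 of 12.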

Other observations

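Barrier genes were mostly higher in ID than in ENR at 96 h. Of 23 tested genes of junctions and keratins 14 were higher and 1 lower (median log2 0.66), beside 19.7% and 18.3% of all tested genes. The tight junction proteins Cldn23 and Cldn4 rose 5.05-fold and 3.81-fold, and Cldn2, a cation-permeable claudin of the crypt, fell to 192, 259.5 and 160.1 CPM in ID, against 320.1, 295 and 373 CPM in ENR. Of 18 tested genes of autophagy and lysosomes 8 were higher and 0 lower (median log2 0.55), with the protease Ctsl 3.10-fold and the autophagy receptor Sqstm1 2.62-fold higher. Serpinb1a, an inhibitor of neutrophil proteases, rose 3.62-fold, one of 3 rises among 8 tested serpins and surface proteases. Of 7 tested epithelial chemokines and cytokines 5 were higher and 1 lower (median log2 1.52). Cx3cl1, a membrane-bound chemokine, had 64.6, 72.3 and 67.8 CPM in ID, against 27.8, 22.5 and 19.6 CPM in ENR, and Ccl20, which attracts lymphocytes and dendritic cells, had 16.2, 46.0 and 45.2 CPM in ID, against 8.54, 4.22 and 8.08 CPM in ENR.

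Region markers of both ends of the small intestine were higher: 6 of 8 tested proximal genes and 3 of 3 tested distal genes rose, and 0 fell. The iron exporter Slc40a1, of the proximal list, rose 3.69-fold, and Cyp4f14, of the distal list, 5.40-fold. Mt1 and Mt2, metallothioneins that bind zinc, rose 2.52-fold and 2.54-fold. Rbp2, which carries retinol in enterocytes, had 21.5, 52.6 and 56.5 CPM in ID, against 2.13, 0.703 and 1.15 CPM in ENR. Bmp2, a signal of differentiated epithelium, rose 2.64-fold. Heat shock and stress genes were called in both directions, with 3 higher and 4 lower of 11 tested (median log2 0.06). Over all tested genes 19.7% were higher and 18.3% lower. The early response factor Klf6 rose 2.80-fold, and the mitochondrial chaperonin Hspe1 fell 2.66-fold.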
